A study of Mus musculus with 4 samples.

Results

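The chemokines and chemokine receptors of the mouse are a family of small secreted proteins and of the G protein-coupled receptors that bind them. They were taken from the named genes of an expression array by their symbols, which begin with Ccl, Cxcl, Cx3cl or Xcl for ligands and with Ccr, Cxcr, Cx3cr, Xcr or Ackr for receptors, each followed by a number. The symbols gave 54 of 18193 genes, 33 of them ligands and 21 receptors. A gene took the signal of its probe set (the group of short probes on the array that reports 1 transcript) with the highest mean log2 signal. Of the 54 genes, 39 were called Present, the array software's call of a detected transcript, on at least 1 array, 26 were Present on all 4 arrays and 15 on none.

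RNA came from the parietal peritoneum, the membrane that lines the abdominal wall, of mice on a C57BL/6J background. Each of the 4 groups was measured on 1 array. SAP-BNP-Tg mice, which carry a brain natriuretic peptide transgene under the serum amyloid P promoter, and wild-type (WT) mice received either chlorhexidine gluconate (CG), an antiseptic that irritates the peritoneum, or the control injection of ethanol/PBS, in groups labelled PBS and called vehicle here. The groups were thus CG Tg, PBS Tg, CG WT and PBS WT. Chlorhexidine was injected into the peritoneal cavity at 0.1% in a solvent of ethanol (15%) and PBS (85%), at 0.01 mL for each gram of body weight, 3 times weekly over 21 days. The labels give neither the ethanol content nor the schedule of the control injection, so an ethanol difference and chlorhexidine cannot be told apart. The age, the sex and the number of mice behind each array are not in the labels.

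The arrays called between 50.5% and 55.1% of 45037 probe sets Present. All 9 measured mesothelial markers, among them Msln, and all 8 skeletal muscle markers were Present on at least 1 array, so transcripts of the serous lining and of body wall muscle were both detected. The summed muscle signal was 65357 and 61606 on the transgenic arrays (chlorhexidine and vehicle) and 64314 and 75545 on the wild-type arrays. Of its genes, the troponin Tnnt3 had 9229.5 and 9677 in transgenic and 8489.6 and 11435 in wild-type mice. The actinin Actn3 had 8639 and 8275 in transgenic and 7573 and 9807 in wild-type mice. Nppb, the gene of the hormone that the transgene encodes, was Absent on all 4 arrays, and gives no check of the genotype labels. The PBS WT array stood apart in its controls. Its 18S rRNA control read 898.5, whereas the other arrays read 82.8 to 117. Its beta-actin probes had a 3-prime to middle ratio of 5.81, whereas the other arrays had 2.23 to 2.84. For that reason each chlorhexidine array was also set against the vehicle array of the other genotype.

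Chemokines are released by stromal cells, endothelium and leukocytes and direct the movement of leukocytes along gradients. Ligands are named after the spacing of their first cysteines, and one receptor often binds several ligands. Inflammatory chemokines are switched on by cytokines and microbial products, whereas homeostatic chemokines are made steadily and place cells within tissues. The peritoneum keeps its own macrophages and B cells, and irritation of its lining draws in neutrophils and monocytes. Atypical receptors of the family bind chemokines without G protein signalling and take them up or carry them across cells.

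Chlorhexidine went with higher signals of ligands that attract monocytes and effector T cells, together with Ccr1, in both genotypes. A rule of size stood in for a test. It required a log2 difference in scaled signal of at least 1 (2-fold), detection (Present) on the array with the higher signal, and a signal on it no lower than the 25th percentile of the detected probe sets. In transgenic mice 9 of 54 genes (16.7%) were higher with chlorhexidine, against 2.67% of all genes, and 0 were lower, against 0.978%. In wild type 15 genes (27.8%) were higher, against 5.77% of all genes, and 4 (7.41%) were lower, against 3.46%. Both genotypes shared 8 genes with a higher signal (14.8%), against 2.13% of all genes, and no gene with a lower one, against 0.577%. Those 8 were Ccl2, Ccl3, Ccl7, Ccl8, Ccl12, Cxcl9, Cxcl10 and Ccr1. The same 8 were higher in all 4 pairings of a chlorhexidine array with a vehicle array, a pattern that 1.78% of all genes showed.

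The ligands had larger median differences than the receptors. The median log2 difference of the 33 ligands was 0.41 in transgenic and 0.79 in wild-type mice. That of the 21 receptors was 0.02 and 0.04, close to the medians over all genes of -0.00 and -0.03. These medians include undetected genes. Only 26 of the ligands and 13 of the receptors were Present on at least 1 array. The medians therefore do not compare detected ligands with detected receptors. By count, 8 ligands (24.2%) and 1 receptor (4.76%) were higher in transgenic mice, against 2.67% of all genes. In wild type 11 ligands (33.3%) and 4 receptors (19.0%) were higher, against 5.77%. The shares over all genes given here and above stand beside the counts of the smaller sets and marker lists below. With 1 array per group none of these differences has a replicate check or a p-value. In bulk tissue, fewer cells of a type and less RNA per cell cannot be told apart.

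**Figure D1:**
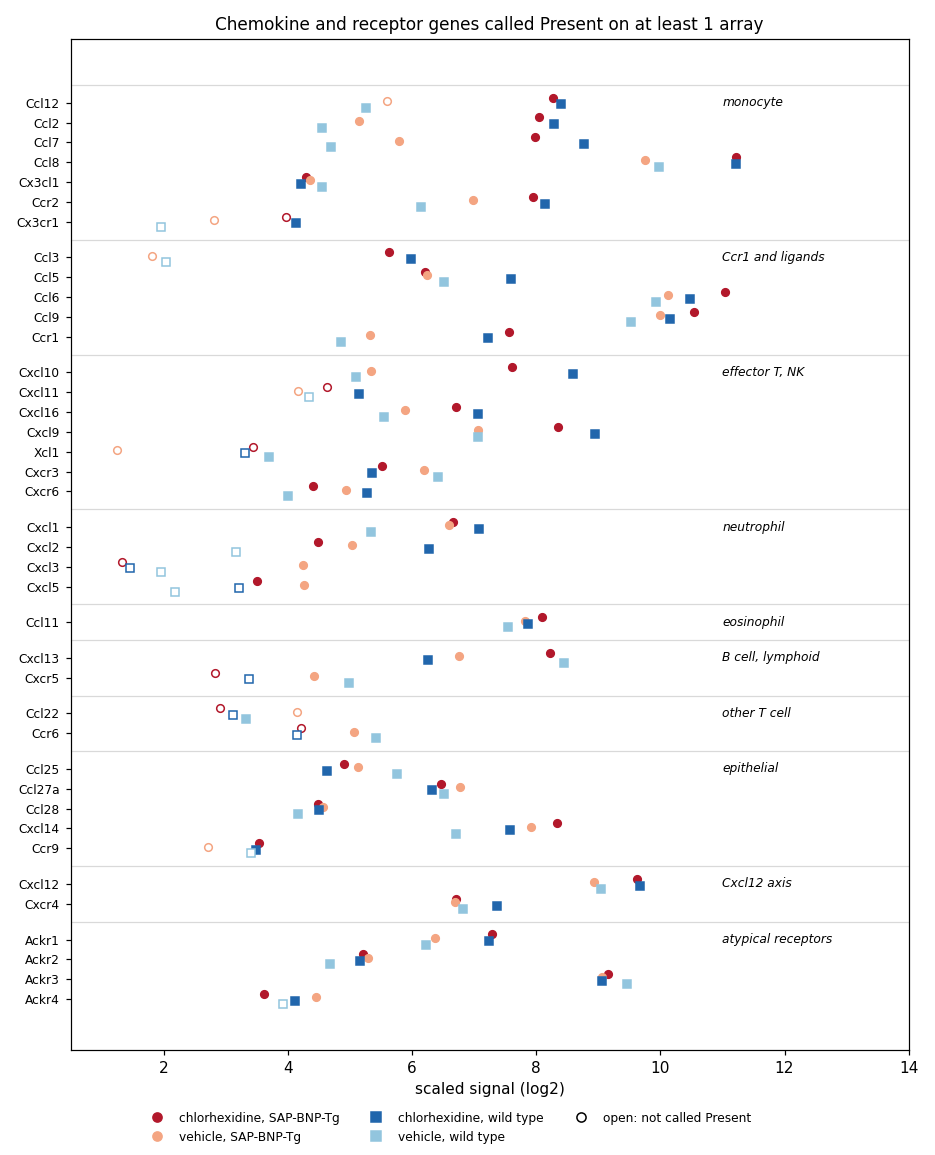
Scaled signal (log2, horizontal axis) of the 39 genes called Present on at least 1 array, grouped by the leukocyte they act on; each point is 1 array, filled where the gene was called Present and open where it was not. Ccl2, Ccl3, Ccl7, Ccl8, Ccl12, Cxcl9, Cxcl10 and Ccr1 lie further right on both chlorhexidine arrays than on both vehicle arrays.

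The monocyte ligands gave the widest response. Ccl2, the main ligand that calls Ccr2-bearing monocytes out of the blood, had a scaled signal of 265 with chlorhexidine and 35.3 with vehicle in transgenic mice, and of 311 and 23.4 in wild type. Ccl7, a second Ccr2 ligand, had signals of 251 and 55.3 in transgenic and of 435 and 26.0 in wild-type mice. Ccl12, a mouse Ccr2 ligand close to Ccl2, had 307 and 48.2 in transgenic mice, with a Marginal call on the vehicle array, and 338 and 38.2 in wild type. All 3 genes were therefore higher on both chlorhexidine arrays than on either vehicle array. The differences were 7.52-fold (transgenic) and 13.3-fold (wild type) for Ccl2 and 4.55-fold and 16.7-fold for Ccl7. For Ccl12 they were at least 6.37-fold in transgenic and 8.85-fold in wild-type mice. Ccl8, which attracts monocytes and in the mouse also T cells through Ccr8, had signals of 2382 and 865 in transgenic and of 2369.5 and 1006 in wild-type mice. It was Present on all 4 arrays, and its differences were smaller, at 2.75-fold and 2.35-fold.

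The remaining monocyte ligand did not follow. Cx3cl1, a membrane-bound ligand for patrolling monocytes, had signals of 19.7 and 20.4 in transgenic and of 18.5 and 23.5 in wild-type mice, with log2 differences of -0.05 and -0.35. Of the 2 monocyte receptors, Ccr2 had signals of 247 and 126 in transgenic mice (1.97-fold, a log2 difference of 0.98, just short of the rule) and of 281 and 71.1 in wild type (3.96-fold). All 4 of its probe sets, each Present on at least 1 array, were higher with chlorhexidine in both genotypes, by 0.52 to 2.39 in transgenic and by 0.66 to 3.30 in wild-type mice on the log2 scale. Cx3cr1, the receptor for Cx3cl1, had 15.7 (CG Tg), 7.02 (PBS Tg), 17.6 (CG WT) and 3.86 (PBS WT). It was Present only on the CG WT array, where its signal lies under the limit of the rule, so Cx3cr1 was not called.

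Markers of monocytes and macrophages moved with these ligands. Of 14 such markers, all 14 were Present on at least 1 array, 4 were higher in transgenic mice (Cd68, Fcgr1, Itgam and Plac8) and 6 in wild-type mice, and 0 were lower in either. Their summed signal was 12733 with chlorhexidine and 7444 with vehicle in transgenic mice, and 13257 and 6828 in wild type. Fcgr1, a high-affinity antibody receptor of monocytes, had 407 and 86.1 in transgenic and 420.1 and 63.2 in wild-type mice. Plac8, which is abundant in blood monocytes, had 2379 and 615 in transgenic and 2656 and 440.05 in wild-type mice. The part of these markers in the ligand and receptor values was not tested.

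The ligands of the Ccl3 group, which act on Ccr1 and related receptors of monocytes, macrophages and activated lymphocytes, did not share 1 pattern. Ccl3 was undetected on both vehicle arrays and Present on both chlorhexidine arrays. Its signals were 49.6 and 3.51 in transgenic and 63.5 and 4.10 in wild-type mice. The ratios to the undetected vehicle readings were 14.1 (transgenic) and 15.5 (wild type), and they depend on those dim readings. With a pseudocount of 32 added to each signal, the log2 differences were 1.20 in transgenic and 1.40 in wild-type mice. Ccl4, its close relative, had signals of 57.9 and 23.0 in transgenic and of 87.5 and 36.1 in wild-type mice, with log2 differences of 1.33 and 1.28. It was Marginal on the CG WT array and Absent on the others, so it failed the rule on its detection calls and not on its signal. Ccl6 and Ccl9, chemokines that mouse macrophages make steadily, were bright on all 4 arrays. Ccl6 had 2107 and 1121 in transgenic and 1420.4 and 975 in wild-type mice, which is 1.88-fold and 1.46-fold. Ccl9 had 1498 and 1024 in transgenic and 1145 and 738 in wild-type mice, with log2 differences of 0.55 and 0.63. Both lay above vehicle on each chlorhexidine array but within 2-fold of it, in each of their 2 probe sets.

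Ccl5 passed the rule in wild type and not in transgenic mice, and its difference of differences of -1.12 was not tested. Ccl5, made by T cells, natural killer (NK) cells and macrophages, had signals of 73.8 and 75.9 in transgenic and of 192 and 91.3 in wild-type mice. The CG WT array alone was high. The log2 difference was -0.04 in transgenic and 1.07 (2.11-fold) in wild-type mice, and on the chlorhexidine arrays Ccl5 was 2.61-fold lower in transgenic mice. Ccr1, the receptor of this group on monocytes and neutrophils, had 189.6 and 40.3 in transgenic and 149.9 and 28.9 in wild-type mice. At 4.71-fold and 5.18-fold it was the only receptor called higher in both genotypes, and its second probe set was also higher in both, by 1.60 and 0.75 on the log2 scale.

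The interferon-induced ligands Cxcl9 and Cxcl10 of Cxcr3, the receptor of effector T and NK cells, were higher in both genotypes, and Cxcr3 itself was lower in wild type. Cxcl10 had signals of 195 and 40.4 in transgenic and of 387 and 34.2 in wild-type mice (4.82-fold and 11.3-fold). Cxcl9 had 326 and 134 in transgenic and 494 and 133 in wild-type mice (2.44-fold and 3.71-fold), and its second probe set gave log2 differences of 1.43 and 2.43. The vehicle signals of each ligand were near each other, and the CG WT array was the brightest for both. Cxcl11, the third ligand, had 24.9 (CG Tg), 17.9 (PBS Tg), 35.3 (CG WT, the only Present call) and 20.4 (PBS WT), and was within 2-fold in both genotypes. Cxcr3 had 45.8 and 73.4 in transgenic and 41.0 and 85.7 in wild-type mice. Both chlorhexidine arrays were below both vehicle arrays, with log2 differences of -0.68 (transgenic) and -1.06 (wild type, 2.09-fold lower).

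The promoter window of Cxcl10 is shown because it holds a match to an interferon response element and its gene was higher in both genotypes. It runs from 250 bases before to 50 bases after the gene start at chr5:92348840-92349139, minus strand, in GRCm38.p6 from RefSeq, with the match in capitals, 213 bases before the start.
Cxcl10: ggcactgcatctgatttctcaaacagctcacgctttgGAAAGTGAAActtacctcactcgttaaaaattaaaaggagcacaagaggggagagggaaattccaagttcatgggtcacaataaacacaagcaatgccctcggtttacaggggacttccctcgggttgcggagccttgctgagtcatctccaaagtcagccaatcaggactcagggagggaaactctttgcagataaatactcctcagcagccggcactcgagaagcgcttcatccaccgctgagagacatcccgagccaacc
Promoters of 41 of the 54 genes were in the table. The letters searched were GAAA, any 2 bases and GAAA, which were found on either strand in 2 of these 41 (4.88%), Cxcl10 and Cxcl14, and in 3.44% of all 32851 promoters (3.99% of genes). A match is a description of the letters and not a shown binding site.

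The Cxcr6 pair behaved less evenly. Cxcl16, a membrane-bound ligand on macrophages, had signals of 105 and 59.1 in transgenic (1.78-fold) and of 134 and 46.8 in wild-type mice (2.87-fold), and its second probe set gave log2 differences of 0.86 and 1.36. Its receptor Cxcr6, found on tissue T and NK cells, had 21.1 and 30.5 in transgenic and 38.6 and 16.0 in wild-type mice. The log2 differences of Cxcr6 were -0.53 and 1.27, and its second probe set had the same signs, at -0.65 and 1.56. Against the other genotype's vehicle array the Cxcr6 differences were 0.40 (transgenic) and 0.34 (wild type), so the wild-type call rested on the PBS WT array. Xcl1, a ligand for cross-presenting dendritic cells, was Present only on the PBS WT array, at 13.0, and its receptor Xcr1 on none.

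T cell markers did not move with the Cxcr3 ligands. Of 12 measured, 10 were Present on at least 1 array and Cd4 and Cd6 on none. None was higher in either genotype, 1 was lower in transgenic mice (Cd3g) and 2 in wild type (Cd2 and Zap70). Their summed signal was 269 and 379 in transgenic and 336 and 537 in wild-type mice, lower with chlorhexidine in both. Cd2, an adhesion receptor of T cells, had 13.4 and 32.5 in transgenic and 22.1 and 54.3 in wild-type mice. Cd5, a T cell surface receptor, had 2.22 and 16.3 in transgenic and 16.0 and 26.9 in wild-type mice. Of 7 NK cell markers, 6 were Present, 0 were higher in transgenic and 3 in wild-type mice (Klrd1, Klrk1 and Nkg7), and their summed signal was 217 and 166 in transgenic and 268 and 138 in wild-type mice. The part of these markers in the ligand and receptor values was not tested. Klrk1, an activating NK receptor, had 49.2 and 28.5 in transgenic and 55.3 and 23.1 in wild-type mice. Klrd1, its relative, had 62.6 and 40.9 in transgenic and 77.5 and 37.6 in wild-type mice.

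**Figure D2:**
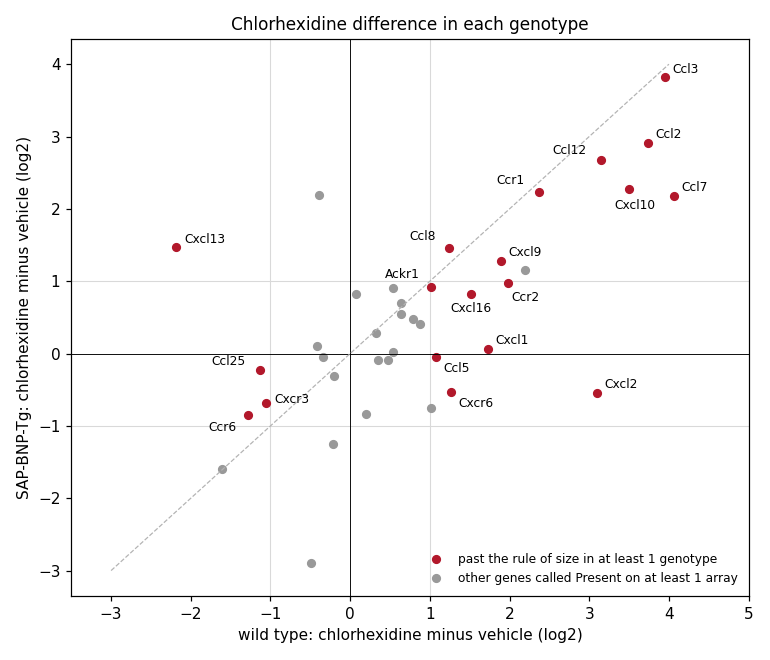
Log2 difference of chlorhexidine minus vehicle in wild-type mice (horizontal) and SAP-BNP-Tg mice (vertical) for the 39 genes called Present on at least 1 array; 1 point is 1 gene, red past the rule of size in at least 1 genotype, and the dashed line marks equal differences. Of the 8 genes past the rule in both genotypes, 7 lie below the line, and Cxcl13 lies alone at upper left with 1.47 in transgenic and -2.18 in wild-type mice.

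Of the 5 neutrophil ligands in the symbol rule, 2 were higher with chlorhexidine in wild type, against 5.77% of all genes. In transgenic mice 0 were higher, against 2.67%. Each genotype was set against its own vehicle array. Cxcl1, a ligand of the neutrophil receptor Cxcr2, had signals of 102 and 97.2 in transgenic and of 135 and 40.6 in wild-type mice. The PBS WT array was the lowest in all 3 of its probe sets. In the probe set used the other arrays were within 1.39-fold of each other, whereas in the other 2 the CG WT array was the highest, at 224 and 239.8, against 83.5 and 81.1 on the CG Tg array. The log2 difference was thus 0.06 in transgenic and 1.73 (3.32-fold) in wild-type mice. Its other probe sets gave 0.01 and 0.70 in transgenic and 3.08 and 4.60 in wild-type mice, so the wild-type value ran over 1.73 to 4.60 with the probe set. Cxcl2, a second Cxcr2 ligand and an early product of macrophages and neutrophils, had 22.5 and 32.8 in transgenic and 77.1 and 9.01 in wild-type mice. PBS WT was not called Present and CG WT was the highest. Cxcl2 differed by -0.54 on the log2 scale in transgenic mice. In wild type it was 8.55-fold above an undetected vehicle reading. The transgenic result turned with the vehicle array. Against PBS WT, Cxcl1 on the CG Tg array was 2.50-fold higher and passed the rule, and its other probe sets gave log2 differences of 3.17 and 1.51. Cxcl2 on the CG Tg array was at least 2.50-fold above PBS WT but under the signal limit of the rule.

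The promoter windows of Cxcl1, Cxcl2 and Cxcl3 are shown because these neighbouring neutrophil ligands share a match to an NF-kB element, GGG and TTTCC with any 2 bases between, in capitals on either strand. All are on the plus strand of GRCm38.p6 (RefSeq), at chr5:90890995-90891294 for Cxcl1, chr5:90903649-90903948 for Cxcl2 and chr5:90785851-90786150 for Cxcl3, each from 250 bases before to 50 after the gene start.
Cxcl1: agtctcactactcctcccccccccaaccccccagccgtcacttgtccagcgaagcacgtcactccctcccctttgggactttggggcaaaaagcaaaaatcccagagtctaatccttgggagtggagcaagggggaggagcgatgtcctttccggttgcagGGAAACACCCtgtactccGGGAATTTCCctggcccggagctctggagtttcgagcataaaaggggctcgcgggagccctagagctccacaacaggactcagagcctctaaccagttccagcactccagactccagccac
Cxcl2: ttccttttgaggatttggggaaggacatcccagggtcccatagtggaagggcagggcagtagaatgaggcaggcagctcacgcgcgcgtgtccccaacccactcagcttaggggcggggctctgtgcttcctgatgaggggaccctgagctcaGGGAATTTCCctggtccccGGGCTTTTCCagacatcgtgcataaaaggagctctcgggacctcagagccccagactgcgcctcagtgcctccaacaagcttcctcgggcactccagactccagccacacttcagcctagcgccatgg
Cxcl3: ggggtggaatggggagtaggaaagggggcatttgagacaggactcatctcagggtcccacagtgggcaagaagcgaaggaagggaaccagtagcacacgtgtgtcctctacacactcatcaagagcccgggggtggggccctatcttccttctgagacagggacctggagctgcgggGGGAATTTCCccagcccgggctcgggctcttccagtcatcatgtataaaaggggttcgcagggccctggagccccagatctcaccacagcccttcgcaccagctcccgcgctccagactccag
The matches begin 89 and 71 bases before the start in Cxcl1, 97 and 78 in Cxcl2 and 73 in Cxcl3. These letters were in 6 of 41 promoters of the family (14.6%), those of Ccl9, Ccl20, Ccr3, Cxcl1, Cxcl2 and Cxcl3. They were in 1.63% of all promoters (1.89% of genes). Other forms of an NF-kB element were not searched, so a promoter without a match may still hold one. The 3 genes that share the searched letters on chromosome 5 did not share their values. Cxcl3, a further Cxcr2 ligand, had 2.53 (CG Tg), 18.9 (PBS Tg, the only Present call), 2.76 (CG WT) and 3.86 (PBS WT). Cxcl5, which also acts on Cxcr2, was Present on the transgenic arrays at 11.3 and 19.1, and its wild-type signals were 9.25 (Marginal) and 4.57 (Absent). Cxcl15 and the receptor Cxcr2 were Present on none.

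The summed signal of neutrophil markers was highest in the group whose Cxcl1 and Cxcl2 did not differ by the rule from the vehicle array of the same genotype. Ppbp, a chemoattractant outside the symbol rule, was higher by the rule in both genotypes. It had 242 and 63.7 in transgenic and 91.2 and 42.1 in wild-type mice, and was chosen after its values were seen. Of 12 measured markers, 7 were Present on at least 1 array, while Mpo, Elane, Ltf, Camp and Cd177 were Present on none. Of these markers 5 were higher in transgenic mice (Csf3r, Lcn2, Mmp8, S100a8 and S100a9), and the same genes without Mmp8, 4 in number, were higher in wild type. Their summed signal was 2644 and 367 in transgenic and 640 and 191 in wild-type mice. S100a8 and S100a9 held most of the sum on the CG Tg array, at 1066 and 930. Mmp9 and Ngp, Present on all 4 arrays, were not called with chlorhexidine in either genotype. Their log2 differences were 0.25 and 0.97 in transgenic and -0.49 and -0.87 in wild-type mice. S100a8, a subunit of the calcium-binding protein calprotectin, had 1066 and 108 in transgenic and 257 and 28.2 in wild-type mice. Mmp8, neutrophil collagenase, was Present only on the CG Tg array, at 59.9, against 3.95 (PBS Tg), 6.59 (CG WT) and 0.585 (PBS WT). Between the chlorhexidine arrays 5 of 12 markers (Lcn2, Mmp8, Ngp, S100a8 and S100a9) were higher in transgenic mice and 0 lower. Between the vehicle arrays 2 of 12 (S100a8 and S100a9) were also higher in transgenic mice, by 1.93 and 2.14 on the log2 scale, and 0 lower. The part of these markers in the ligand values was not tested.

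**Figure D3:**
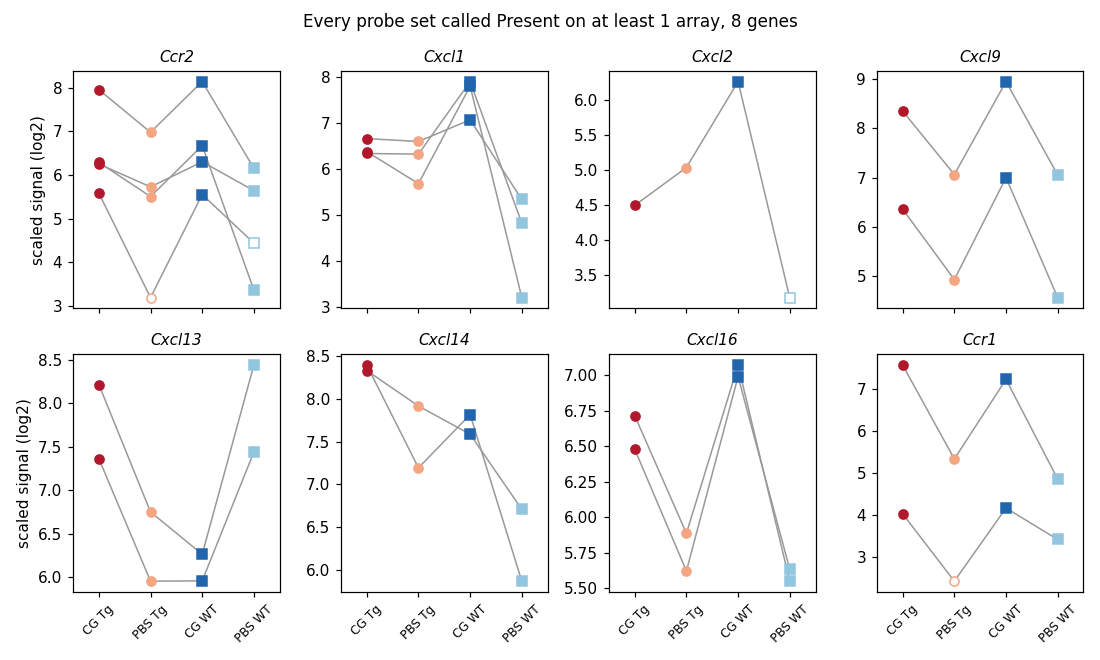
Scaled signal (log2) of every probe set called Present on at least 1 array, for 8 genes, with the groups CG Tg, PBS Tg, CG WT and PBS WT from left to right; a line joins the values of 1 probe set, and open symbols were not called Present. The 3 probe sets of Cxcl1 differed in wild type by 1.73 to 4.60 and in transgenic mice by 0.01 to 0.70, and both probe sets of Cxcl13 went in opposite directions in the 2 genotypes.

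Cxcl13 went in opposite directions. Cxcl13, which draws B cells through Cxcr5 and is known from the fat-associated lymphoid clusters of the serous cavities, had signals of 298 and 108 in transgenic and of 76.7 and 348 in wild-type mice. CG Tg and PBS WT were high, and PBS Tg and CG WT low. It was 2.77-fold higher with chlorhexidine in transgenic mice and 4.53-fold lower in wild type, and the second probe set gave log2 differences of 1.41 and -1.49. Against the other genotype's vehicle array the log2 differences were -0.22 (transgenic) and -0.49 (wild type), so the sign in transgenic mice turned with the vehicle array. The second probe set then gave -0.08 and 0.00. Cxcr5, its receptor on B cells, was Present on both vehicle arrays and on neither chlorhexidine array. Its signals were 7.07 and 21.4 in transgenic and 10.3 and 31.6 in wild-type mice, or lower by at least 3.03-fold in transgenic and at least 3.06-fold in wild-type mice, but under the signal limit of the rule.

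B cell markers were lower with chlorhexidine in both genotypes, whereas Cxcl13, against each genotype's own vehicle array, was lower in wild type only. Of 7 measured, 5 were Present on at least 1 array and Pax5 and Blk on none, 3 were lower in transgenic mice (Cd79a, Cd79b and Ms4a1) and 5 in wild type (with Cd22 and Fcrla). Their summed signal was 96.6 and 299 in transgenic and 98.4 and 601 in wild-type mice. Between the vehicle arrays 4 of the 7 (Cd79a, Cd79b, Fcrla and Ms4a1) were lower in transgenic mice and 0 higher. Cxcl13 was 3.23-fold lower there. Cd79a, a part of the B cell receptor, had 2.32 and 37.9 in transgenic and 4.04 and 78.4 in wild-type mice, undetected on both chlorhexidine arrays. Ms4a1, the B cell antigen CD20, had 13.2 and 73.5 in transgenic and 6.99 and 174 in wild-type mice. Fat cell markers, of which 6 of 6 were Present, had summed signals of 13089 and 17995 in transgenic and of 10003 and 18685 in wild-type mice. Cidec, a lipid droplet protein, had 238 and 544 in transgenic and 126 and 328 in wild-type mice. Lep, the hormone leptin, had 3.03 and 354 in transgenic and 24.3 and 169 in wild-type mice, undetected on both chlorhexidine arrays. The part of these B cell and fat cell markers in the values of Cxcl13 and Cxcr5 was not tested. Ccr6, found on B cells and on T helper cells of the Th17 type, was also undetected with chlorhexidine, at 18.5 and 33.4 in transgenic and 17.7 and 43.0 in wild-type mice. It was lower by at least 1.81-fold in transgenic and at least 2.43-fold in wild-type mice, and only the wild-type value passed the rule. Ccr7, the receptor that guides T cells and dendritic cells to lymph nodes, was Present on none. Of 7 dendritic cell markers, 6 were Present, 1 was lower in transgenic mice (Itgax) and 0 differed in wild type, with summed signals of 218 and 282 in transgenic and of 223 and 285 in wild-type mice. Itgax, the integrin CD11c, had 31.4 and 74.9 in transgenic and 54.4 and 96.9 in wild-type mice. Itgae, the integrin CD103, had 25.9 and 38.8 in transgenic and 19.2 and 34.3 in wild-type mice.

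Ligands and receptors of eosinophils and of other T helper and regulatory T cells were mostly undetected. Ccl11 (eotaxin), the main eosinophil attractant, was Present on all arrays, at 274 and 225 in transgenic and 234 and 186 in wild-type mice, with log2 differences of 0.28 and 0.33. Ccl24, a second eotaxin, and the receptor Ccr3 were Present on none. Eosinophil markers were near the detection limit, with 1 of 5 Present on any array and a summed signal of 11.8 and 21.6 in transgenic and 12.6 and 21.4 in wild-type mice. That was Siglecf, an eosinophil surface receptor, at 3.44 and 6.40 in transgenic and 6.99 and 3.39 in wild-type mice. Prg2, Epx, Il5ra and Prg3 were Present on none. Of the ligands Ccl1, Ccl17, Ccl20 and Ccl22, only Ccl22 was Present, on the PBS WT array at 10.1. The receptors Ccr4 and Ccr8 were Present on none.

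In the probe sets used, the detected ligands of epithelial surfaces and the pair Cxcl12 and Cxcr4 were within 2-fold of vehicle, with 1 exception in wild type. The last 2 are homeostatic. Ccl25, known from gut and thymus, had 30.0 and 35.1 in transgenic and 24.7 and 54.2 in wild-type mice, 2.19-fold lower in wild type, and its second probe set had the opposite sign in both genotypes. Ccl27a, known from skin, had 88.4 and 109.7 in transgenic and 79.7 and 91.8 in wild-type mice. Ccl28, a mucosal ligand, had 22.3 and 23.7 in transgenic and 22.7 and 17.9 in wild-type mice. For Ccl27a and Ccl28 neither pair of arrays differed by the rule. Cxcl14, which is made by epithelium and fibroblasts, had 321 and 241 in transgenic and 192 and 105 in wild-type mice. It was thus higher in transgenic mice under each treatment, by 0.74 with chlorhexidine and by 1.21 with vehicle on the log2 scale, and its second probe set gave 0.58 and 1.32. Within each genotype its chlorhexidine array was above vehicle, by 0.41 and 0.88, and the second probe set gave 1.20 and 1.94, past 2-fold in both genotypes. Mesothelial markers had summed signals of 628 and 576 in transgenic and of 423 and 717 in wild-type mice, and their part was not tested. Wt1, a mesothelial transcription factor, had 52.3 and 21.8 in transgenic and 60.7 and 31.5 in wild-type mice. Upk3b, a membrane protein of mesothelium, had 155 and 184 in transgenic and 56.4 and 189 in wild-type mice, and Krt19 was also lower in wild type by the rule. Cxcl17 and Ccr10 were Present on none. Ccr9, the receptor for Ccl25, was Present on both chlorhexidine arrays only, at 11.6 and 11.2, with vehicle signals of 6.58 (PBS Tg, Absent) and 10.7 (PBS WT, Marginal).

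Cxcl12, which holds leukocytes and stem cells in place, was bright on all 4 arrays, at 787 and 485 in transgenic and 815 and 526 in wild-type mice (1.62-fold and 1.55-fold). Another of its probe sets showed no such difference, with -0.02 and -0.05 on the log2 scale. Its receptor Cxcr4 had 105 and 103 in transgenic and 165 and 114 in wild-type mice, with log2 differences of 0.02 and 0.54. Neither gene passed the rule in either genotype.

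Of the 4 atypical receptors 1 passed the rule, in wild type. Ackr1, the Duffy antigen that carries chemokines across the endothelium of venules, had 157 and 82.7 in transgenic (1.90-fold) and 152 and 75.0 in wild-type mice (2.02-fold). Both chlorhexidine arrays were above both vehicle arrays, and the 2 genotypes lay on either side of the threshold with near-equal differences of 0.92 and 1.02. Ackr2, a scavenger of inflammatory CC chemokines on lymphatic endothelium, had 37.1 and 39.3 in transgenic and 35.6 and 25.6 in wild-type mice. Ackr3, a scavenger of Cxcl12, had 573 and 531 in transgenic and 533 and 709 in wild-type mice. Ackr4, a scavenger of homeostatic CC chemokines, had 12.3 and 21.9 in transgenic and 17.4 and 15.2 in wild-type mice, with a Marginal call on PBS WT. Its log2 differences were -0.83 and 0.19, whereas its other Present probe set, also dim, gave 1.36 and 0.99. In the probe sets used, these 3 receptors did not differ by the rule. All 6 measured markers of lymphatic endothelium were Present, 0 were higher in transgenic and 2 in wild-type mice (Flt4 and Mmrn1), and their summed signal was 1497 and 901 in transgenic and 1481 and 954 in wild-type mice. Their part in the receptor values was not tested. Mmrn1, a secreted protein of lymphatic endothelium, had 179 and 90.8 in transgenic and 200.2 and 68.2 in wild-type mice. Flt4, the receptor for lymphatic growth factors, had 57.6 and 41.5 in transgenic and 76.8 and 27.4 in wild-type mice.

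Against the vehicle array of the same genotype, the chlorhexidine difference was smaller in transgenic than in wild-type mice for most of the genes higher in both. Of the 8, 7 had the larger difference in wild type, with a median difference of the log2 differences of -0.54, against 326 of the 387 genes of the whole array that were higher in both genotypes, with a median of -0.46. The 8 genes thus lay near all genes of that kind. This order rests on which vehicle array is used. With the vehicle arrays exchanged, Ccl2, Ccl7, Ccl12 and Ccr1 had the larger difference in transgenic mice and the other 4 in wild type, and 217 of the 387 genes had the larger difference in wild type, with medians of -0.00 and -0.11. By the rule of size applied to the difference itself, 7 of 54 genes had a smaller chlorhexidine difference in transgenic mice, against 2.07% of all genes, and 1 a larger one, against 1.4%. The 7 were Ccl5, Ccl7, Ccr2, Cxcl1, Cxcl2, Cxcl10 and Cxcr6, and the 1 was Cxcl13 at 3.65. The call of Ccr2 ended after quantile normalization (-0.91), after median centring (-0.82), with a pseudocount of 32 (-0.78) and with the mean of its probe sets (-0.60). That of Ccl5 ended after median centring (-0.93) and with the pseudocount (-0.89), and that of Cxcr6 with the pseudocount (-0.79). No test was possible for a difference of differences on 4 arrays.

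For these 7 genes the chlorhexidine arrays and the vehicle arrays contributed unequally. On the log2 scale, transgenic minus wild type, Cxcl10 differed by -0.99 with chlorhexidine and by 0.24 with vehicle. Ccl5 likewise differed by -1.38 with chlorhexidine and by -0.27 with vehicle. For both, the difference lay between the chlorhexidine arrays. Ccr2 had -0.19 between the chlorhexidine arrays and 0.82 between the vehicle arrays, but its 4 probe sets disagreed, with vehicle differences from -1.25 to 2.14 and differences of differences from -2.52 to 1.28. Cxcl1 had -0.41 with chlorhexidine and 1.26 with vehicle, and its other probe sets had -1.43 and -1.56 between the chlorhexidine arrays, past the rule of size there. Ccl7, Cxcl2 and Cxcr6 differed on both sides, by -0.79 and 1.09 for Ccl7, by -1.77 and 1.86 for Cxcl2 and by -0.87 and 0.93 for Cxcr6.

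Direct comparison of the genotypes called few genes. With chlorhexidine, 1 of 54 genes was higher in transgenic mice, Cxcl13 at 3.88-fold, against 0.55% of all genes. Ccl5 and Cxcl2 were lower, at 2.61-fold and 3.42-fold, or 2 of 54 against 0.676%. Cxcl2 was just short of the rule with a pseudocount of 32. With vehicle, 3 genes were higher in transgenic mice, against 0.671% of all genes. They were Ccl7 (2.13-fold), Cxcl1 (2.39-fold) and Cxcl14 (2.31-fold). The call of Ccl7 ended after quantile normalization (a log2 difference of 0.94), after median centring (0.96) and with a pseudocount of 32 (0.59), and that of Cxcl1 with the pseudocount (0.83). Cxcl13 was lower, at 3.23-fold, 1 gene against 0.352%. Each of the vehicle values rests on the PBS WT array with its high 18S rRNA signal, and the part of that array's quality in them was not tested.

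With the vehicle arrays exchanged between genotypes, 15 genes were higher in transgenic mice, against 3.62% of all genes, and 12 in wild type, against 5.07%. In transgenic mice 1 gene was lower, Ccr6, against 1.72%, and in wild type 0 were, against 2.5%. Both genotypes then shared 10 higher genes, against 2.3%, and 0 lower ones, against 0.72%. The wild-type calls of Ackr1, Ccl25, Ccr6, Cxcl1, Cxcl13, Cxcr3 and Cxcr6 were lost, with log2 differences from the PBS Tg array of 0.88, -0.51, -0.92, 0.47, -0.49, -0.84 and 0.34 in that order. For Cxcl1 the loss holds for the probe set used, and its other 2 were 2.12 and 1.58 above the PBS Tg array. Cxcl2 in wild type was 2.35-fold above the PBS Tg array, and Ccr2 was 2.24-fold above it. Other settings also ended wild-type calls. Ackr1 and Ccl5 lost theirs after quantile normalization (0.83 and 0.91), after median centring (0.78 and 0.84) and with a pseudocount of 32 (0.78 and 0.86). Ccl25 and Cxcr3 lost theirs with the deposited scaling (-0.88 and -0.81) and with the pseudocount (-0.60 and -0.69), and Ccl25 with the mean of its probe sets too (-0.48). Ccr6 and Cxcr6 lost theirs with the pseudocount (-0.59 and 0.56). Ccl5 was higher on the CG WT array against either vehicle array, by 1.07 and 1.34, and on the CG Tg array against neither, at -0.04 and -0.31.

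**Figure D4:**
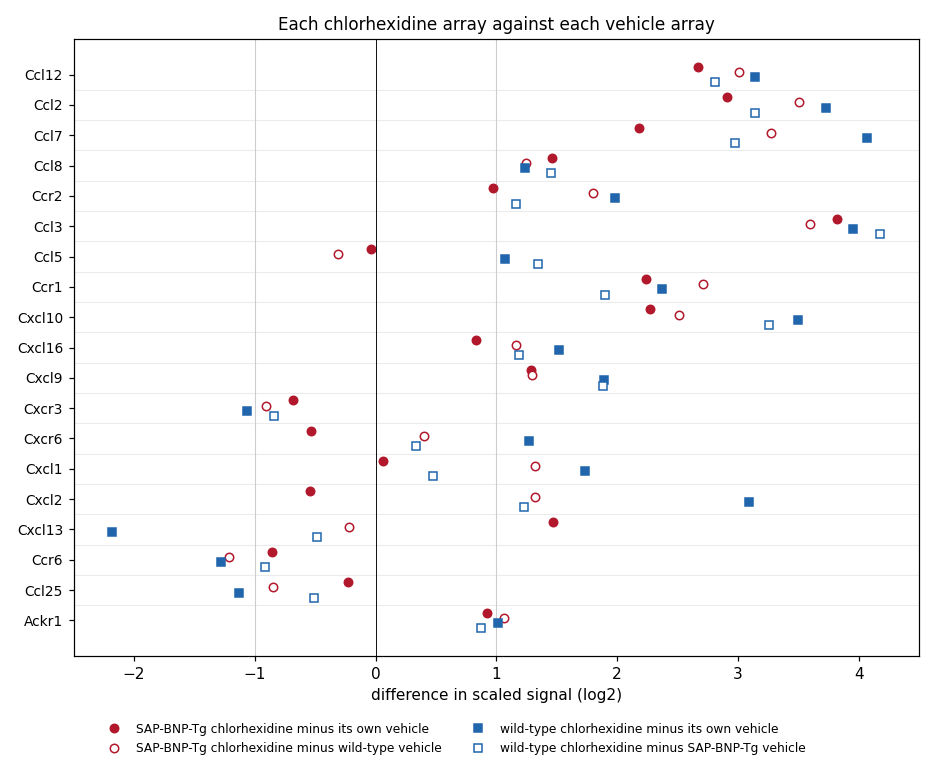
Log2 difference of each chlorhexidine array from each vehicle array for the 19 genes past the rule with chlorhexidine in wild-type mice, which hold all 9 past it in SAP-BNP-Tg mice; filled symbols are against the vehicle array of the same genotype and open symbols against that of the other. Ccl2, Ccl3, Ccl7, Ccl8, Ccl12, Cxcl9, Cxcl10 and Ccr1 lie to the right of 1 in all 4 pairings, whereas Cxcl1, Cxcl2 and Cxcl13 spread widely.

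In the additive limma fit with treatment and genotype, which has 1 residual degree of freedom and takes a genotype difference in response as error, 8 of 12754 genes were higher with chlorhexidine (0.0627%) and 4 lower (0.0314%) after Benjamini-Hochberg adjustment. Of the 39 genes of the family that were tested, 1 was below the threshold of 0.05, Ccl3, with an adjusted p of 0.0342 in limma. Ccl3 entered the fit only through its Present calls on the chlorhexidine arrays and was undetected with vehicle. For Ccl3 the fit therefore gives neither a size of the change nor support for it. With all 18193 named genes in the fit, 0 genes of the family passed, and the smallest adjusted p was 0.399 in limma. Beyond the threshold lay Ccl2 (limma coefficient 3.32, adjusted p = 0.0504), Ccl12 (2.91, 0.0504), Ccr1 (2.30, 0.0506) and Cxcl10 (2.89, 0.0539). The error behind these p-values is each gene's genotype difference in response, pooled in part with that of the other genes tested. They measure no spread between mice or between arrays of a group.

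Genes that carry the signal of chemokine receptors inside the cell had smaller median differences than the ligands. Of 33 such genes, 32 were Present on at least 1 array. In transgenic mice 1 of 33 was higher (Fgr), near the share of 2.67% of all genes. In wild type 4 of 33 were higher (Arrb2, Gnai3, Rgs1 and Vav1), against 5.77% of all genes. In both genotypes 0 were lower, against 0.978% (transgenic) and 3.46% (wild type) of all genes. Their median log2 differences were 0.31 and 0.39. Rgs1, which shortens G protein signalling in lymphocytes, had 42.7 and 49.7 in transgenic and 149 and 32.8 in wild-type mice. Vav1, an exchange factor for Rac in leukocytes, had 33.2 and 20.3 in transgenic and 56.7 and 13.7 in wild-type mice. For both the CG WT array was the highest. Genes named only in parentheses after a count, here and in the marker lists above, were chosen after their values were seen.

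Of 15 chemoattractant genes outside the symbol rule, such as complement and formyl peptide receptors, 13 were Present. In transgenic mice 4 were higher (C3ar1, C5ar1, Fpr2 and Ppbp), against 2.67% of all genes. In wild type 5 were higher (with Cmtm3), against 5.77%. In both genotypes 0 were lower, against 0.978% and 3.46%. Their median log2 differences were 0.07 and 0.55. C3ar1, the receptor for complement fragment C3a, had 254 and 93.3 in transgenic and 275 and 84.2 in wild-type mice. C5ar1, the receptor for C5a, had 86.9 and 36.1 in transgenic and 102 and 29.3 in wild-type mice, the last not called Present. Both genes were above vehicle on each chlorhexidine array.

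Several of the genes lie side by side in the genome. In the order of protein-coding genes in RefSeq, Ccl2, Ccl7, Ccl11, Ccl12, Ccl8 and Ccl1 are 6 neighbours on chromosome 11, of which 4 were higher in both genotypes, Ccl11 was within 2-fold and Ccl1 was undetected. Further along the same chromosome lie Ccl5, Ccl9, Ccl6, Ccl3 and Ccl4, of which Ccl3 was higher in both. On chromosome 5 Cxcl3, Cxcl15, Cxcl1 and Cxcl2 are neighbours. Against the vehicle array of the same genotype, 0 of 4 were higher in transgenic and 2 of 4 in wild-type mice. On chromosome 9 the receptors Cxcr6, Xcr1, Ccr1, Ccr1l1, Ccr3 and Ccr2 are neighbours, and Ccr1 was the member higher in both. Neighbouring genes thus did not share 1 pattern.

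The genes not called in any of the 5 comparisons were 19 that were Present on at least 1 array and 15 that were Present on none. The 19 had signals from 2.37 to 2107 and log2 differences from -2.90 to 2.19 in transgenic and from -1.61 to 2.19 in wild-type mice. The widest of these came from dim genes such as Cxcl3, Xcl1 and Cx3cr1. The 15 had signals from 0.689 to 87.5 and included 8 receptors. They lacked a Present call, and no change of theirs was called. Of 15 genes with several probe sets called Present, the sign of the chlorhexidine difference depended on the probe set for 5 in transgenic mice (Ackr2, Ackr4, Ccl25, Ccl28 and Cxcl12) and for 2 in wild type (Ccl25 and Cxcl12).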

How the data were processed

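Total RNA of the parietal peritoneum was labelled with biotin by in vitro transcription and hybridised to 1 Affymetrix mouse array per group, per the labels' protocols. The authors deposited an expression signal for each probe set, an intensity on a linear scale, with a detection call (Present, Marginal or Absent) and its p-value, per the file headers. For the signal algorithm and scaling target, nothing is given in the sources used here, and the raw image files, which the design text gives as lost, were not used. The series-wide table gave identical signals, with 0 differing.

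Arrays had 2% trimmed mean signals of 101, 116, 103 and 86.8 (CG Tg, PBS Tg, CG WT, PBS WT) over 45037 probe sets, without 64 controls. They were multiplied by 1.01, 0.877, 0.984 and 1.17 to a common mean, floored at 0.1 and taken to log2. The platform annotation used here paired 34945 of these with a single symbol, 932 with more than 1 and 9160 with no symbol. Only single symbols were used, updated through Entrez identifiers for 34741, from a RefSeq table of GRCm38.p6. With a dimmer array that was not Present, a fold is against the higher of that array's lowest Present signal and the gene's own value. Such a fold, also where written as at least, rests on an undetected reading and is not a strict bound. The 25th percentile of Present signals was 35.4, 34.7, 35.0 and 34.5 in the order above.

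The 5 comparisons set chlorhexidine against vehicle within each genotype, genotypes against each other under each treatment, and the difference of differences, all by the rule of size. limma 3.58.1 in R 4.3.3 fitted treatment and genotype to 12754 genes. Its steps were checked on simulated data. The text names each gene of the family past the rule in any comparison, each receptor detected, and the 2 genes of each marker or signalling list with the largest mean chlorhexidine difference; further genes are named where the family is accounted for. The genes, lists and their order were chosen with earlier results of these data known. Protein sequences were not used here. The number of arrays limits the precision. Alternatives were other scalings, a pseudocount of 32, other filters and thresholds, other probe set rules, and the vehicle array of the other genotype.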

Additional observations from a re-analysis of the deposited data

Results flagged for a closer look

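Cxcl13 was 2.77-fold higher with chlorhexidine in transgenic mice and 4.53-fold lower in wild type, in opposite directions against each genotype's own vehicle array. Against the vehicle array of the other genotype the log2 differences were -0.22 (transgenic) and -0.49 (wild type). The sign thus turned with the vehicle array in transgenic mice and stayed negative in wild type. Transgenic minus wild type, Cxcl13 differed by 1.96 between the chlorhexidine arrays and by -1.69 between the vehicle arrays, so both sides contributed. PBS WT stood apart in its controls, and the part of its quality was not tested. The difference of the log2 differences was 3.65, transgenic minus wild type. With 1 array per group the difference was not tested. Both of its Present probe sets had these signs. The signals were 298 (CG Tg), 108 (PBS Tg), 76.7 (CG WT) and 348 (PBS WT).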

How the results depend on the processing

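The counts below are genes of the family past the rule of size. No share over all genes is given for the filter, threshold and pseudocount settings, so those counts do not compare the family with all genes. In transgenic mice 9 genes were called with chlorhexidine, against 23 with no filter on dim probe sets, 15 at 1.5-fold and 16 with the wild-type vehicle array. In wild type 19 were called, against 30 with no filter, 11 at 3-fold and 12 with the transgenic vehicle array. In both genotypes 8 were called, against 13 with no filter and 13 at 1.5-fold. The same 8 genes passed in both genotypes under each alternative tried except a Present call on all 4 arrays, which lost Ccl3 and Ccl12, and a 3-fold threshold, which lost Ccl8 and Cxcl9. Between genotypes 3 genes were called with chlorhexidine, against 10 with no filter and 9 at 1.5-fold. With vehicle 4 were called, against 7 with the deposited scaling, 2 with a pseudocount of 32, 11 with no filter, 8 at 1.5-fold and 1 at 3-fold. For the difference of differences 8 were called, against 5 with the pseudocount, 22 with no filter and 5 at 3-fold. Where a filter was dropped or a threshold moved, the counts follow from that construction, and for the other settings the cause was not tested.

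The deposited scaling changed the split of higher and lower genes of the family in wild type from 15 and 4 to 17 and 2, and between the vehicle arrays from 3 and 1 to 6 and 1. The split of the difference of differences was 1 and 7, against 2 and 6 after quantile normalization and 2 and 5 after median centring. Over all genes the wild-type split was 1049 and 629, against 867 and 749 (quantile), 1586 and 318 (deposited) and 723 and 1225 (median), the transgenic one 486 and 178, against 329 and 320 (deposited), and the one between vehicle arrays 122 and 64, against 458 and 7 (deposited). The median log2 difference of all genes was then 0.22 in wild type, -0.21 in transgenic mice and 0.38 between vehicle arrays (deposited), -0.12 in wild type (quantile), and -0.26 in wild type and -0.16 between vehicle arrays (median). Cxcl13 in transgenic mice was -0.22 against the wild-type vehicle array, a reversal, and the cause was not tested. Of the other single-gene values, 943 kept their side of the threshold, 27 of them with a change of sign, 38 newly passed it and 58 no longer did.

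The limma fit called 1 gene of the family (12 of all genes), against 11 (722) with the deposited scaling, 6 (160) after median centring, 18 (2359) with the pseudocount and 19 (2483) with an intensity trend. It called 0 after quantile normalization, with the mean of probe sets, without cross-hybridising probe sets and over all named genes, where 18, 18, 22 and 19 genes of the family had an unadjusted p under 0.05, against 21 in the fit as reported. Over all genes these counts were 2820, 2199, 2768 and 2178, against 2939 of 12754 (23%). No paired analysis was possible because each group has 1 array and the labels give no replicate numbers. Dim genes limit what the arrays can show, and 15 genes of the family were detected on none.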
